A study of Mus musculus with 24 samples.

Results

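The genes described here are 10 transcripts that respond to corticosterone, the main glucocorticoid hormone of the mouse, out of 52636 gene identifiers counted in mouse brain: Tsc22d3, Plin4, Map3k6, Sult1a1, Fkbp5, Sgk1, Hif3a, Zbtb16, Pdk4 and Cdkn1a. All 10 were found in the count tables, and all 10 were among the 19726 genes that passed the filter on low counts. The membership of the list comes from general knowledge of the hormone, and several members were picked because their values were lower in Syn Cre_pos libraries, with no numerical threshold. The Syn Cre comparison of the members is therefore given as a description without a test. No hormone treatment or hormone measurement is given in the labels, so the response to corticosterone was not itself measured.

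The study sequenced brain RNA of 24 mice, 6 per group, to ask what loss of the glutamate transporter EAAT2 (gene Slc1a2) does when Cre recombinase is driven in neurons or in astrocytes. The Syn Cre_pos mice were syn-Cre+ EAAT2−/−, and the Syn Cre_neg mice were syn-Cre− EAAT2+/+. The GFAP Cre_pos mice were gfapCre+ EAAT2Δ/+, and the GFAP Cre_neg mice were gfap-Cre− EAAT2+/+. Cre is expressed from a synapsin promoter, active in neurons, or a GFAP promoter, active in astrocytes, but the RNA was taken from brain and not from sorted cells. No source used here gives the age, sex or handling of the mice or the time of day of sampling.

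Corticosterone leaves the adrenal gland in a daily rhythm and in bursts after stress, driven by corticotropin-releasing hormone from the hypothalamus. In brain cells it binds the glucocorticoid receptor (Nr3c1) and the mineralocorticoid receptor (Nr3c2), which leave their Hsp90 chaperone complex and bind DNA at paired half-sites. Many of the targets act back on the signal or on metabolism: Fkbp5, a cochaperone of Hsp90, lowers the affinity of the receptor for hormone, and Tsc22d3 (GILZ) restrains inflammatory transcription factors.

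Promoter windows were available for 9 of the 10 genes, 17 windows in all, from RefSeq on GRCm38.p6, each holding 250 bases before and 50 after a transcription start. Zbtb16 is named only. The palindrome GNACANNNTGTNC, which is its own reverse complement and has the spacing of a glucocorticoid response element, was found in 2 of the 17 windows, against 156 of 32851 windows of all genes (0.475%). The half-site AGAACA, searched on both strands, was found in 5 windows of 3 genes, against 19% of all windows. Sgk1 and Tsc22d3 each had several windows, so windows are not separate genes, and enrichment was not tested. The 4 windows shown first hold a match, marked by capitals (TGTTCT is the half-site on the other strand), and the Hif3a window is shown because Hif3a had one of the largest differences and held neither motif.
Sgk1: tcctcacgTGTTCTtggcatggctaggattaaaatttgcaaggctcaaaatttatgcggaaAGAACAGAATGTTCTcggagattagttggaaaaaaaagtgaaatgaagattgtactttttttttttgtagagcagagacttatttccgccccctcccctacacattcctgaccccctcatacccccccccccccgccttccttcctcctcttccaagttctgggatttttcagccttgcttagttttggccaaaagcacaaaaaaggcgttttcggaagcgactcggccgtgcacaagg
Map3k6: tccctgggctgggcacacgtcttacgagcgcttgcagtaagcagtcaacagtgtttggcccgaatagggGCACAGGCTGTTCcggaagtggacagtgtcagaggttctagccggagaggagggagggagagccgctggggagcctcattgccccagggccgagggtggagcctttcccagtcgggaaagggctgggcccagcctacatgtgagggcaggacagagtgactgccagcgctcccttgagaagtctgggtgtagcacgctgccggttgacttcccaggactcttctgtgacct
Tsc22d3: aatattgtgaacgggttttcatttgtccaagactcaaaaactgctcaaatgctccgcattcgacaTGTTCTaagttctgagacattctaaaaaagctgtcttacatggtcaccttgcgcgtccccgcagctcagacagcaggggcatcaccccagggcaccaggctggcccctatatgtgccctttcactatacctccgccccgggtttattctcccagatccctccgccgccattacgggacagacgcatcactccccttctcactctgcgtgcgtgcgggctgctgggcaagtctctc
Sult1a1: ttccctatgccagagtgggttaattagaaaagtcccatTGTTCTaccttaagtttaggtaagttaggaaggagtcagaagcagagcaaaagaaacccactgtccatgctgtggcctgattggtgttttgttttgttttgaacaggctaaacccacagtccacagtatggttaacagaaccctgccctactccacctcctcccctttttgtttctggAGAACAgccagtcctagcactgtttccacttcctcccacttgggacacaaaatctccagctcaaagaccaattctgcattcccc
Hif3a: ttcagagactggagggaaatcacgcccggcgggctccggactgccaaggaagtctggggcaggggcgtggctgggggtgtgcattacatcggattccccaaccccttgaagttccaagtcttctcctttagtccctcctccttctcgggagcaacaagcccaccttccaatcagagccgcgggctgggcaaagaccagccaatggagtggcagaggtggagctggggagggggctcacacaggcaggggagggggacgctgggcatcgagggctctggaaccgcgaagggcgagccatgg
The Sgk1 window (chr10:21993640-21993939, plus strand) held the palindrome at -188 from the start and 2 half-sites that overlap it, at -189 and -180, with a further half-site at -242. The Map3k6 window (chr4:133240568-133240867, plus strand) held the palindrome at -181. The Tsc22d3 window (chrX:140600473-140600772, minus strand) held 1 half-site, at -185. The Sult1a1 window (chr7:126676369-126676668, minus strand) held half-sites at -212 and -34. The Hif3a window (chr7:17062378-17062677, minus strand) held none, which says only that these letters are not in these 300 bases. These matches describe letters and are not binding sites shown in these mice.

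Total counts in genes ran from 41596313 to 69652824 per library. Slc1a2 itself was not called in either Cre comparison: its level was 2616 to 3235 CPM (reads of a gene, scaled for sequencing depth) in Syn Cre_pos and 3227 to 3461 CPM in Syn Cre_neg libraries (log2 fold change -0.14, unadjusted p = 0.0771), and 3043 to 3855 CPM in GFAP Cre_pos and 2494 to 3980 CPM in GFAP Cre_neg libraries (-0.02, unadjusted p = 0.843). The count adds up all exons, and no source used here names the exon removed. Neuronal markers (8 genes) summed to 5982 CPM or more and astrocytic markers (8 genes) to 2322 CPM or more in every library, so markers of both cell classes were present. Choroid plexus markers (10 genes, led by Ttr) summed to 76.0 to 5159 CPM in Syn Cre_pos, 110 to 5433 CPM in Syn Cre_neg, 57.2 to 280 CPM in GFAP Cre_pos and 57.4 to 211 CPM in GFAP Cre_neg libraries. Titles of the libraries start with a number that no 2 groups share and whose meaning is not given, so it cannot be told apart from group. In bulk tissue, fewer cells of a type and less RNA per cell cannot be told apart.

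Per kilobase of exon, the members covered a wide range of levels. Tsc22d3, Sgk1 and Zbtb16 averaged 9.70 to 15.7 RPKM (reads per kilobase of exon, scaled for depth) over the 4 groups, and Fkbp5 averaged 5.87 to 7.50 RPKM. Pdk4 and Sult1a1 averaged 3.05 to 4.33 RPKM and Cdkn1a 1.25 to 2.19 RPKM. Plin4, Hif3a and Map3k6 were the lowest, with group means of 0.336 to 1.67 RPKM. The lowest count of any member in any library was 65, for Plin4, so the values of the lowest members rest on few reads.

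**Figure D1:**
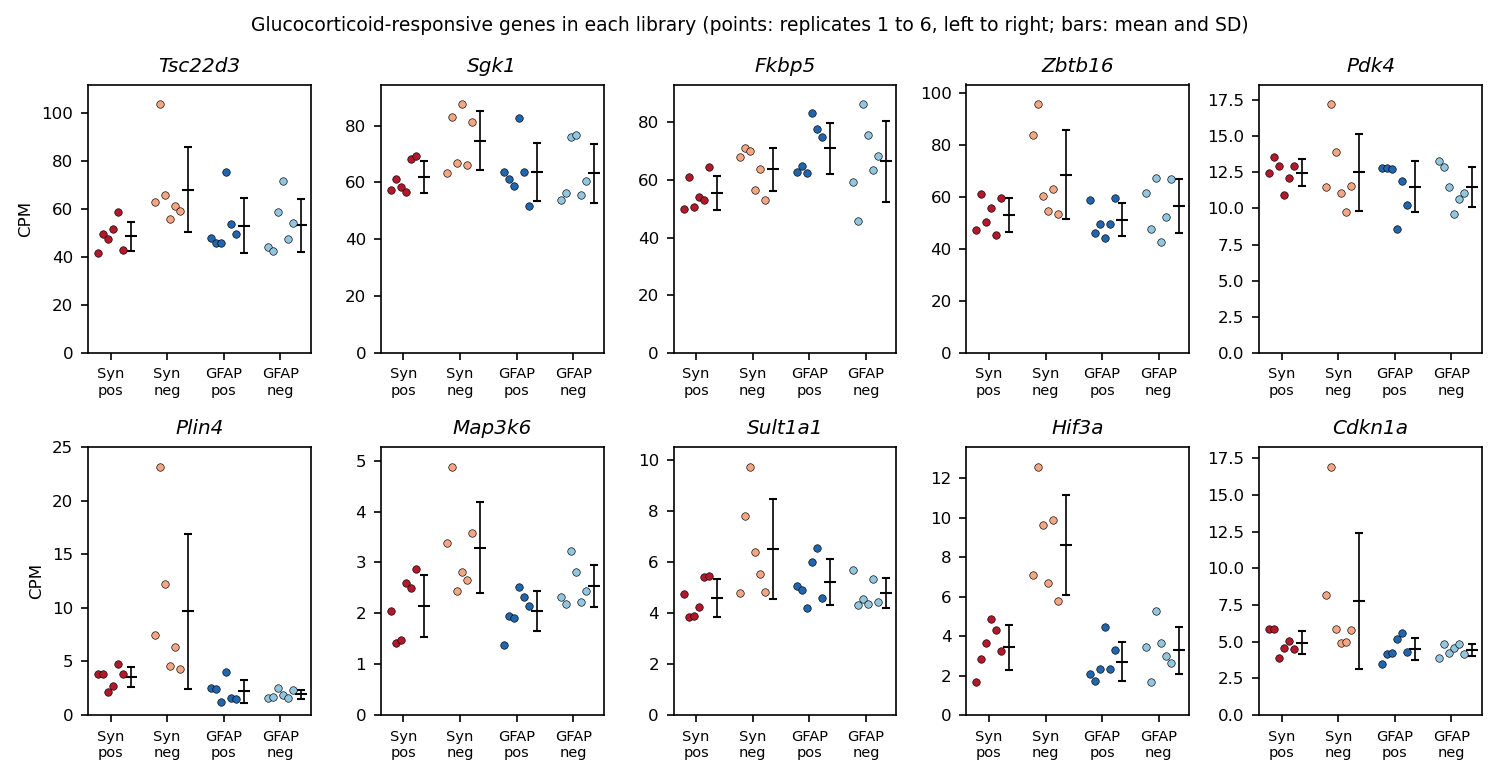
Level of each of the 10 genes in CPM (y axis, starting at 0) in the 24 libraries, with 6 points per group in replicate order and the mean and SD beside them. The Hif3a points of Syn Cre_neg (5.77 to 12.6 CPM) lie above all Syn Cre_pos points (1.66 to 4.87 CPM), and the Syn Cre_neg group holds 1 library far above the rest for Tsc22d3 and Cdkn1a.

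In the Syn Cre comparison the fitted values of Plin4, Hif3a, Cdkn1a and Map3k6 were the farthest below 0. All 10 log2 fold changes were negative, with a median of -0.50, beside a median of -0.003 over all genes tested, of which 51.4% were negative. At an adjusted p of 0.05, edgeR called 0% of all 19726 genes lower and 0.00507% in either direction. Since these values helped to choose the genes, nothing is read from their shared sign.

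Among the transcription factors, Hif3a had a larger difference than Zbtb16. Hif3a (ENSMUSG00000004328, GRCm38 chr7:17031507-17062427, minus strand) encodes an alpha subunit of the hypoxia-inducible factors, and some of its splice forms restrain the other alpha subunits. It had 1.66, 3.43 and 4.87 CPM (lowest, median, highest) in Syn Cre_pos and 5.77, 8.36 and 12.6 CPM in Syn Cre_neg libraries. The groups did not overlap, which held in this direction for 0.0963% of all genes, and the log2 fold change was -1.33 (SE 0.27). Hif3a was the one member whose Syn groups did not overlap. The Syn values helped to choose the members, so nothing is read from this separation or from its rarity.

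Zbtb16 (PLZF, ENSMUSG00000066687, chr9:48654297-48836222), a zinc finger repressor, had 45.1, 52.9 and 61.0 CPM in Syn Cre_pos and 53.6, 61.6 and 95.5 CPM in Syn Cre_neg libraries. The groups overlapped, with 2 Syn Cre_neg libraries at 83.6 and 95.5 CPM standing above the other 4, and the log2 fold change was -0.37 (SE 0.14).

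The feedback genes differed less than Hif3a. Tsc22d3 (ENSMUSG00000031431, chrX:140539528-140600659) had 41.6, 48.3 and 58.5 CPM in Syn Cre_pos and 55.6, 62.1 and 104 CPM in Syn Cre_neg libraries, a log2 fold change of -0.49 (SE 0.16). Its groups overlapped by 1 library on each side: 5 of 6 Syn Cre_pos libraries were below the lowest Syn Cre_neg library. Fkbp5 (ENSMUSG00000024222, chr17:28399094-28517527) had 49.8, 53.5 and 64.6 CPM in Syn Cre_pos and 52.95, 65.9 and 71.0 CPM in Syn Cre_neg libraries. Its groups overlapped widely and the log2 fold change was -0.20 (SE 0.12).

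Of the kinases, Sgk1 (ENSMUSG00000019970, chr10:21882184-21999903), which acts on ion channels and transporters, had 56.8, 59.9 and 69.4 CPM in Syn Cre_pos and 63.4, 74.0 and 87.5 CPM in Syn Cre_neg libraries (log2 fold change -0.27, SE 0.11). Map3k6 (ENSMUSG00000028862, chr4:133240818-133252929), a stress-activated kinase kinase kinase, had 1.41, 2.27 and 2.87 CPM in Syn Cre_pos and 2.45, 3.10 and 4.88 CPM in Syn Cre_neg libraries (-0.62, SE 0.18). In both genes the groups overlapped and the highest library was a Syn Cre_neg one. Pdk4 (ENSMUSG00000019577, chr6:5483351-5496309), which switches off pyruvate dehydrogenase in fasting, had 10.9, 12.7 and 13.6 CPM in Syn Cre_pos and 9.75, 11.5 and 17.2 CPM in Syn Cre_neg libraries. Its log2 fold change was -0.002 (SE 0.11), and the Syn Cre_pos range lay inside the Syn Cre_neg range.

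Plin4 (ENSMUSG00000002831, chr17:56100591-56109803), a coat protein of lipid droplets, had 2.11, 3.82 and 4.73 CPM in Syn Cre_pos and 4.25, 6.92 and 23.2 CPM in Syn Cre_neg libraries. Its log2 fold change of -1.46 (SE 0.36) was the largest of the 10, and the groups overlapped between 4.25 and 4.73 CPM. Sult1a1 (ENSMUSG00000030711, chr7:126672865-126676432), a sulfotransferase of phenols, had 3.84, 4.50 and 5.44 CPM in Syn Cre_pos and 4.81, 5.97 and 9.76 CPM in Syn Cre_neg libraries (-0.50, SE 0.15). Cdkn1a (p21, ENSMUSG00000023067, chr17:29090976-29100727), an inhibitor of cyclin-dependent kinases, had 3.87, 4.79 and 5.88 CPM in Syn Cre_pos and 4.94, 5.82 and 16.9 CPM in Syn Cre_neg libraries (-0.66, SE 0.22). For Plin4 and Sult1a1, exons overlap those of a gene on the opposite strand by 17 bases (Hdgfl2) and 61 bases (Sgf29), and no source used here states how the counting treated strand.

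**Figure D2:**
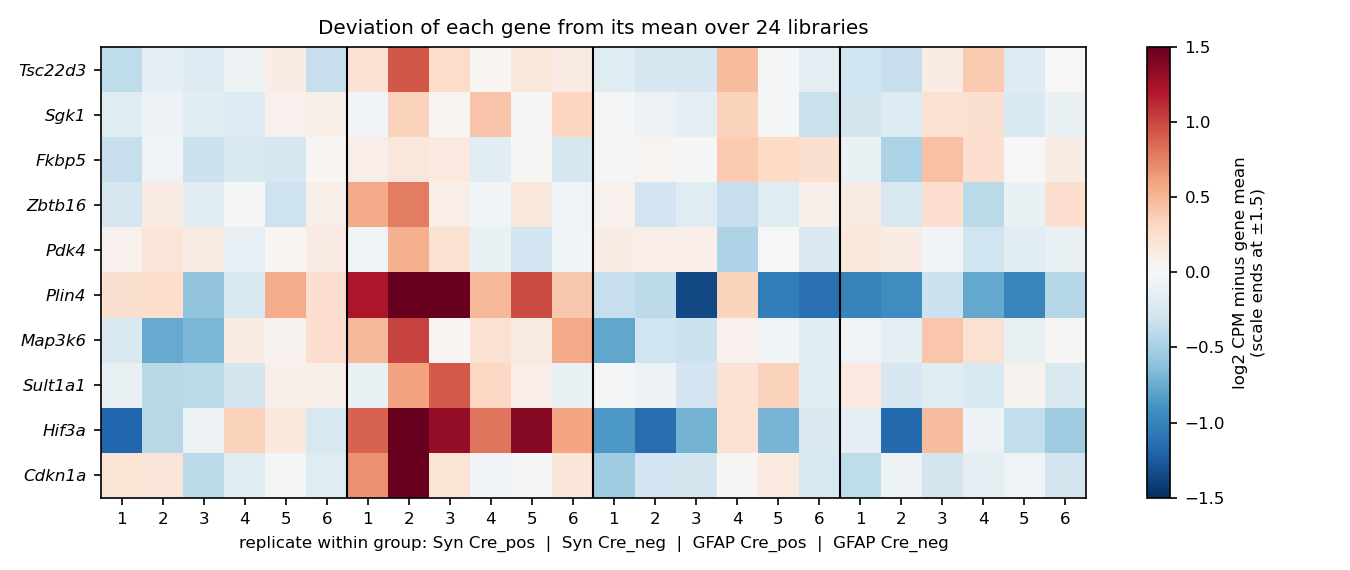
Colour gives each library's log2 CPM minus the gene's mean over all 24 libraries (red above, blue below, scale ending at 1.5 either side), with libraries in columns by group and replicate. Library Syn Cre_neg 2 is the reddest column, and the Hif3a and Plin4 rows are red across Syn Cre_neg.

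A single library carried part of these differences. Syn Cre_neg 2 was the highest of its group for 8 of the 10 members, and the mean of the members there was 4.75 log2 CPM, against 3.85 to 4.20 in the other 5 Syn Cre_neg libraries and 3.40 to 3.73 in the 6 Syn Cre_pos libraries. All 6 Syn Cre_neg libraries were above all Syn Cre_pos libraries in this mean. Several members were picked for lower values in Syn Cre_pos, so nothing is read from this separation. Without Syn Cre_neg 2 the median member log2 fold change was -0.30, with -1.19 for Hif3a, -0.99 for Plin4, -0.47 for Map3k6, -0.44 for Sult1a1, -0.33 for Tsc22d3, -0.27 for Cdkn1a and 0.11 for Pdk4. Several marker sums also set Syn Cre_neg 2 apart within its group. Oligodendrocyte markers (8 genes) summed to 8012 CPM there, the highest of all 24 libraries, against 5164 to 5883 CPM in the other 5 Syn Cre_neg libraries. Blood markers (6 genes) summed to 142 CPM against 72.2 to 107 CPM, astrocyte markers to 2672 CPM against 2322 to 2477 CPM, and microglia markers to 411 CPM against 342 to 392 CPM. Meningeal markers were the lowest of the group there, at 71.8 CPM against 114 to 326 CPM, as were mural markers, at 197 CPM against 199 to 242 CPM. The part of these markers in the result was not tested. Among the 6 Syn libraries with Ttr below 1000 CPM, 3 of each group and Syn Cre_neg 2 among them, the median member log2 fold change was -0.67. These 6 libraries are among those that chose the genes.

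Within Syn Cre_neg, libraries 1 to 3 share one title number and libraries 4 to 6 another. The member mean was 4.08, 4.75 and 4.20 log2 CPM in libraries 1 to 3 and 3.88, 3.95 and 3.85 log2 CPM in libraries 4 to 6. Hif3a in libraries 4 to 6 (6.70, 9.90 and 5.77 CPM) stayed above the highest Syn Cre_pos library (4.87 CPM), whereas Plin4 there (4.56, 6.38 and 4.25 CPM) overlapped Syn Cre_pos. What the number stands for, and its part in the result, was not tested.

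The GFAP line gives libraries that the choice of the members did not use, and here no member passed the test between Cre_pos and Cre_neg. By edgeR, 0 of 10 were called, 0 had an unadjusted p under 0.05 (2.99% of all genes), and DESeq2 and limma-voom called 0 as well, where edgeR called 0.0101% of all genes. The median log2 fold change was 0.005, with 4 negative and 6 positive, beside 51.2% negative over all genes.

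Hif3a had 1.72, 2.34 and 4.46 CPM in GFAP Cre_pos and 1.69, 3.21 and 5.27 CPM in GFAP Cre_neg libraries. The groups overlapped almost fully, and the log2 fold change was -0.28 (95% interval -0.85 to 0.29, unadjusted p = 0.315). Plin4 had 1.23, 2.00 and 4.06 CPM in GFAP Cre_pos and 1.59, 1.77 and 2.55 CPM in GFAP Cre_neg libraries (log2 fold change 0.18, interval -0.61 to 0.97). For neither gene does the missed threshold show that the groups were alike. The smallest p of the 10 was that of Map3k6, with 1.39, 2.04 and 2.52 CPM in GFAP Cre_pos and 2.19, 2.37 and 3.23 CPM in GFAP Cre_neg libraries (-0.32, interval -0.70 to 0.06, unadjusted p = 0.0977).

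Tsc22d3, Sgk1 and Fkbp5 gave narrower intervals than Hif3a, Plin4 and Map3k6. Tsc22d3 had 45.7, 48.6 and 75.5 CPM in GFAP Cre_pos and 42.6, 50.7 and 71.5 CPM in GFAP Cre_neg libraries (log2 fold change -0.003, interval -0.33 to 0.32). Sgk1 had 51.7, 62.4 and 82.6 CPM in GFAP Cre_pos and 53.7, 58.5 and 76.8 CPM in GFAP Cre_neg libraries (0.01, interval -0.21 to 0.23). In both genes the groups overlapped over most of their range. Fkbp5 had 62.6, 69.9 and 83.3 CPM in GFAP Cre_pos and 45.7, 65.9 and 86.3 CPM in GFAP Cre_neg libraries (0.10, interval -0.14 to 0.33). The remaining 4, Sult1a1, Zbtb16, Pdk4 and Cdkn1a, had log2 fold changes of -0.14 to 0.13. The difference between the Syn and the GFAP effects was not tested, because the Syn values helped to choose the genes.

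**Figure D3:**
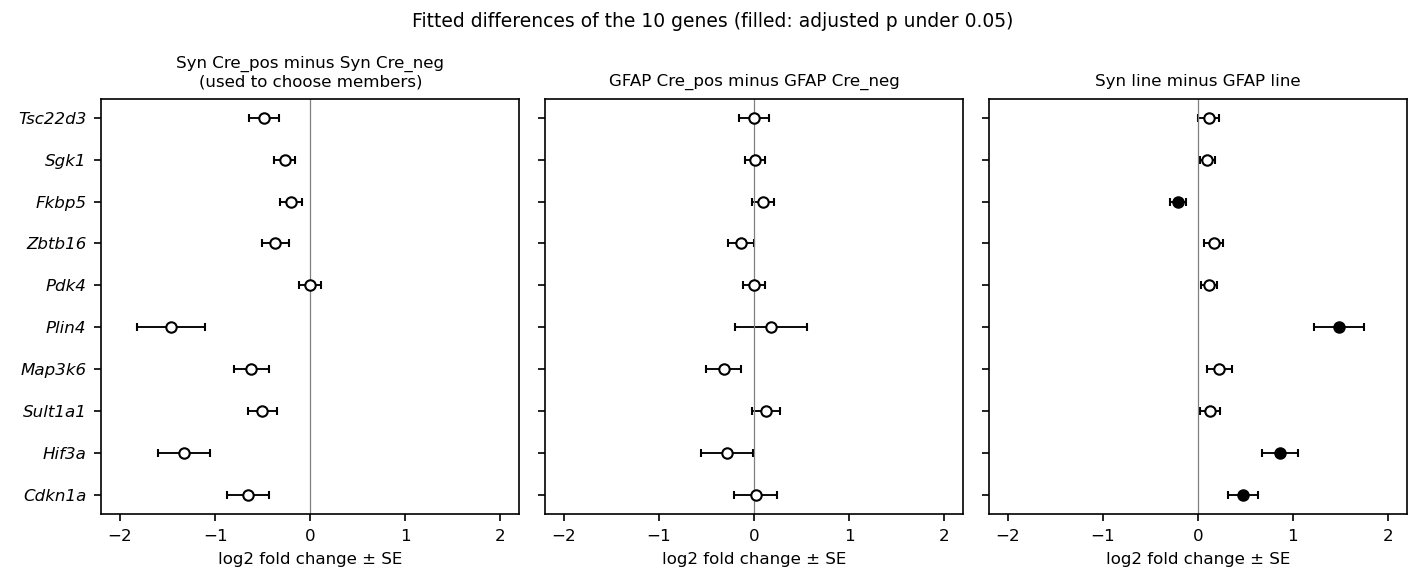
Fitted log2 fold change with its SE (x axis) for each gene (rows) in 3 comparisons, with filled points where the adjusted p was under 0.05 (the Syn Cre panel is not tested, and the line panel is not independent of the choice of genes). Hif3a and Plin4 lie beyond -1 in the Syn Cre panel, all GFAP Cre points lie near 0, and Plin4 lies at 1.49 in the line panel.

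Setting both groups of the Syn line against both groups of the GFAP line gave 4 called members, 3 higher and 1 lower in the Syn line. The line comparison called 46.7% of all genes (21.4% higher, 25.3% lower), so 4 of 10 is near the background. The Syn values that helped to choose the genes enter this comparison too, so it is no independent test of the members, and their values are given as a description. Line, title number, breeding and handling cannot be told apart in it. Marker sums moved with line: oligodendrocyte markers summed to 5164 to 8012 CPM in Syn and 3481 to 5141 CPM in GFAP libraries, neuronal markers to 5982 to 6959 CPM in Syn and 7106 to 8416 CPM in GFAP libraries, and endothelial markers to 197 to 231 CPM in Syn and 239 to 303 CPM in GFAP libraries, with no overlap in any of the 3. Ttr averaged 1952 CPM in Syn and 102 CPM in GFAP libraries, a log2 fold change of 4.26. The part of these markers in the members' values was not tested. Plin4 averaged 6.59 ± 5.87 CPM in Syn and 2.08 ± 0.777 CPM in GFAP libraries (SD, n = 12 each), a log2 fold change of 1.49. Hif3a averaged 6.02 ± 3.30 CPM in Syn and 2.99 ± 1.09 CPM in GFAP libraries (log2 fold change 0.87). Cdkn1a averaged 6.36 ± 3.50 CPM in Syn and 4.47 ± 0.582 CPM in GFAP libraries (0.48, and 0.28 without Syn Cre_neg 2). Fkbp5 averaged 59.6 ± 7.73 CPM in Syn and 68.7 ± 11.4 CPM in GFAP libraries (-0.21). The Fkbp5 call was lost in 15 of the 24 fits that each left out 1 library.

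Among the 4 groups, Syn Cre_neg had the highest mean CPM for 9 of the 10 members, although for Pdk4 both Syn means rounded to 12.5 CPM. The Syn values helped to choose the members, and the share of all genes highest in Syn Cre_neg was not taken. Nothing is therefore read from this count or from the orders of groups given next. Hif3a averaged 3.42 ± 1.13 CPM in Syn Cre_pos, 8.61 ± 2.54 in Syn Cre_neg, 2.71 ± 1.00 in GFAP Cre_pos and 3.28 ± 1.20 in GFAP Cre_neg libraries (SD, n = 6 each). Its order from low to high was GFAP Cre_pos, GFAP Cre_neg, Syn Cre_pos and Syn Cre_neg; the first 3 overlapped one another, and Syn Cre_neg overlapped none of them. Plin4 averaged 3.51 ± 0.936 CPM in Syn Cre_pos, 9.68 ± 7.22 in Syn Cre_neg, 2.21 ± 1.05 in GFAP Cre_pos and 1.94 ± 0.420 in GFAP Cre_neg libraries. Its order from low to high was GFAP Cre_neg, GFAP Cre_pos, Syn Cre_pos and Syn Cre_neg, and each neighbouring pair overlapped. Fkbp5 was the exception, with both GFAP groups above both Syn groups: it averaged 55.5 ± 6.00 CPM in Syn Cre_pos, 63.7 ± 7.44 in Syn Cre_neg, 71.0 ± 8.82 in GFAP Cre_pos and 66.5 ± 14.0 in GFAP Cre_neg libraries.

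Whether the members go up and down together between mice was asked in the 12 GFAP libraries, after centring each gene on its group mean in log2 CPM. Of 45 pairs, 30 had a positive Pearson r, with a median of 0.22, and 5 passed an adjusted permutation p of 0.05. The rate for pairs of other genes was not taken, so these counts are not read as particular to the members. Fkbp5 and Map3k6 gave r = 0.783 and Spearman rho = 0.909 (permutation p = 0.00065 and 0.0002, adjusted over 45 pairs to 0.0203 and 0.00788). Fkbp5 and Tsc22d3 gave r = 0.787 and rho = 0.881 (permutation p = 0.00149 and 0.00035, adjusted to 0.0203 and 0.00788). GFAP Cre_pos 4 and GFAP Cre_neg 3 were among the 3 highest libraries for each of these 3 genes. The permutations took no account of title number. GFAP Cre_neg 3 and GFAP Cre_neg 4 share a title number and stood above the rest of their group for several members. Their values were 58.7 and 71.5 CPM for Tsc22d3, 86.3 and 75.7 CPM for Fkbp5 and 3.23 and 2.82 CPM for Map3k6. The same held for Sgk1 (76.1 and 76.8 CPM) and Hif3a (5.27 and 3.65 CPM). The part of title number in these correlations was not tested.

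Tsc22d3 and Sgk1 gave r = 0.876 and rho = 0.706, and Fkbp5 and Hif3a gave r = 0.839 and rho = 0.790 (adjusted permutation p = 0.0203 for each r, 0.0955 and 0.0595 for the rho values). Pdk4 ran the other way from Tsc22d3, with r = -0.844 and rho = -0.783 (adjusted permutation p = 0.0203 and 0.0595). After leaving out the 2 libraries farthest from the median of the first gene, 1 of the 5 pairs passed again, Tsc22d3 and Fkbp5 (r = 0.920, adjusted permutation p = 0.0144). Map3k6 with Fkbp5 had r = 0.832 and rho = 0.939 in the 10 libraries left, no smaller than with all 12, but its adjusted permutation p was 0.0995. The r was 0.690 for Tsc22d3 with Sgk1, 0.644 for Fkbp5 with Hif3a and -0.532 for Tsc22d3 with Pdk4. All were nearer 0 than with all 12, and these 3 pairs did not pass again. Fewer libraries were left, so how far these calls rest on the libraries left out cannot be told. Fkbp5 with Pdk4 passed after leaving out its 2 libraries (r = -0.861, adjusted permutation p = 0.0272), and not with all 12 (r = -0.650, adjusted permutation p = 0.0894). Plin4, Sult1a1, Zbtb16 and Cdkn1a were in none of the 5 pairs.

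**Figure D4:**
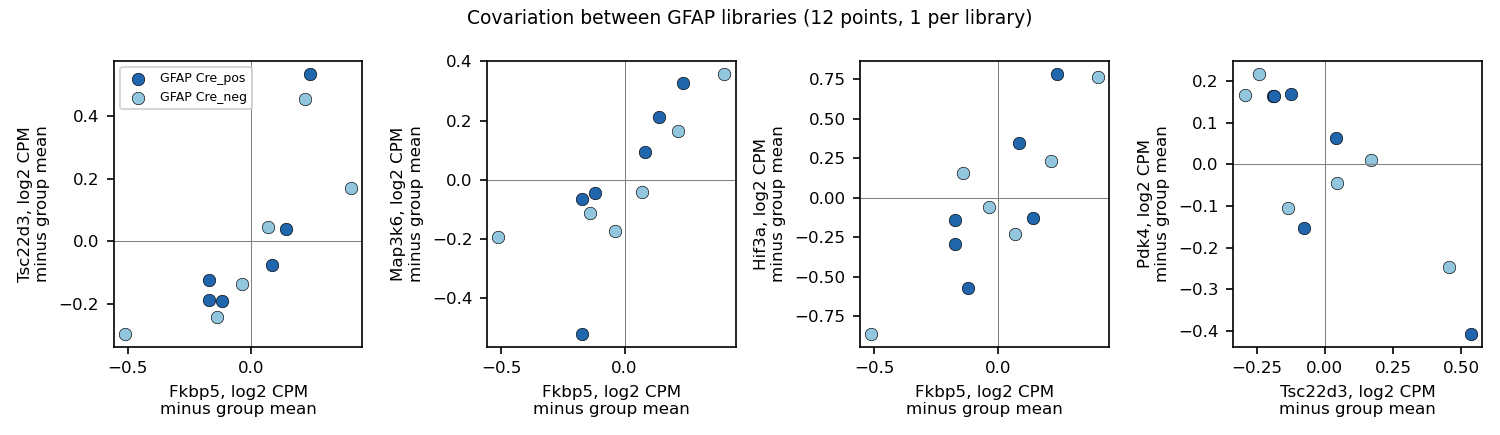
Each point is 1 of 12 GFAP libraries, and both axes give log2 CPM minus the group mean for the named genes. Map3k6, Tsc22d3 and Hif3a rise with Fkbp5 across libraries (r = 0.783, 0.787 and 0.839), and Pdk4 falls as Tsc22d3 rises (r = -0.844).

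Over all 24 libraries, each centred on its group mean, 5 other genes followed the mean of the members most closely. Sdc4, a cell surface proteoglycan, had a Spearman rho of 0.872, Adipor2, an adiponectin receptor, 0.853, and Xdh, which breaks down purines, 0.821. The clock gene Per2 had 0.811 and Mfsd2a, a lipid transporter of the blood-brain barrier, 0.808. Without Syn Cre_neg 2 the 5 values were 0.786 to 0.856. These were picked for their likeness from all genes tested, so they describe these libraries only.

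The machinery upstream of the members was measured for 13 of 16 genes of hormone supply and receptors, and none was called in either Cre comparison. The 3 genes too low to test were Hsd11b2, Cyp11b1 and Serpina6. Both receptors had positive values in the Syn Cre comparison, without a call. Nr3c2 had 191 ± 17.9 CPM in Syn Cre_pos and 164 ± 11.2 CPM in Syn Cre_neg libraries (log2 fold change 0.22). Nr3c1 had 109 ± 6.16 CPM in Syn Cre_pos and 101 ± 3.84 CPM in Syn Cre_neg libraries (0.11). In the GFAP line the values were -0.03 for Nr3c2 and -0.06 for Nr3c1. Crh, the hypothalamic releasing hormone, had 0.780 ± 0.256 CPM in Syn Cre_pos and 1.22 ± 0.259 CPM in Syn Cre_neg libraries (-0.65). Its receptors Crhr1 (-0.25) and Crhr2 (-0.29), the binding protein Crhbp (-0.05), Pomc (0.02) and Avp (0.55) had values in both directions.

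The genes that make, break down or carry steroids had small values in the Syn Cre comparison: Hsd11b1, which regenerates corticosterone, 0.00, Cyp11a1 0.06, Akr1c18 0.16, Hsd17b10 -0.04 and the efflux pump Abcb1a -0.04. Between lines 6 of the 13 were called, close to the 46.7% of all genes: Nr3c2 (-0.38, adjusted p = 1.07e-05), Nr3c1 (-0.12), Hsd11b1 (-0.18) and Abcb1a (-0.30) were lower and Crhr2 (0.97) and Avp (1.34) higher in the Syn line. Of 14 chaperones and cofactors of the receptor, 12 were negative in the Syn Cre comparison with a median of -0.03 and none was called. The smallest p values there were those of Hspa8 (-0.08), Crebbp (-0.09) and Fkbp4 (-0.07).

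Other glucocorticoid-induced genes outside the members were tested for 31 of 34, and 0 were called in the Syn or the GFAP comparison by edgeR, DESeq2 or limma-voom. In the Syn Cre comparison 27 of 31 were negative (51.4% of all genes) with a median of -0.13, and 8 had an unadjusted p under 0.05 (4.67% of all genes). Among these 8, Angptl4 was positive (0.35). This list, like the other lists, was chosen with earlier results of these data known, so its counts are no independent test. Without Syn Cre_neg 2, 22 were negative with a median of -0.05, and 1 had an unadjusted p under 0.05. In the GFAP Cre comparison 12 of 31 were negative with a median of 0.03. Mertk, a phagocytic receptor, had 36.6 ± 2.64 CPM in Syn Cre_pos and 45.6 ± 6.21 CPM in Syn Cre_neg libraries (-0.32). Klf9, a transcription factor induced by the hormone, had 114 ± 5.98 CPM in Syn Cre_pos and 128 ± 13.7 CPM in Syn Cre_neg libraries (-0.17). Lcn2, a secreted protein that binds bacterial iron carriers, had 0.360 ± 0.192 CPM in Syn Cre_pos and 1.09 ± 1.37 CPM in Syn Cre_neg libraries (-1.59).

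Immediate early genes, induced by neuronal activity, and clock genes were also mostly negative in the Syn Cre comparison. All 16 immediate early genes were negative, with a median of -0.29, 0 called and 0 at an unadjusted p under 0.05 (Egr3 -0.22, Fosb -0.43, Nr4a2 -0.26). Without Syn Cre_neg 2, 11 of 16 were negative with a median of -0.08. Of 17 clock genes 16 were negative, with a median of -0.13 and 3 at an unadjusted p under 0.05: Nr1d2 (-0.17), Per2 (-0.28) and Npas2 (-0.17). Without Syn Cre_neg 2, 15 clock genes were negative with a median of -0.09. In the GFAP Cre comparison 5 of 16 immediate early genes and 10 of 17 clock genes were negative.

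**Figure D5:**
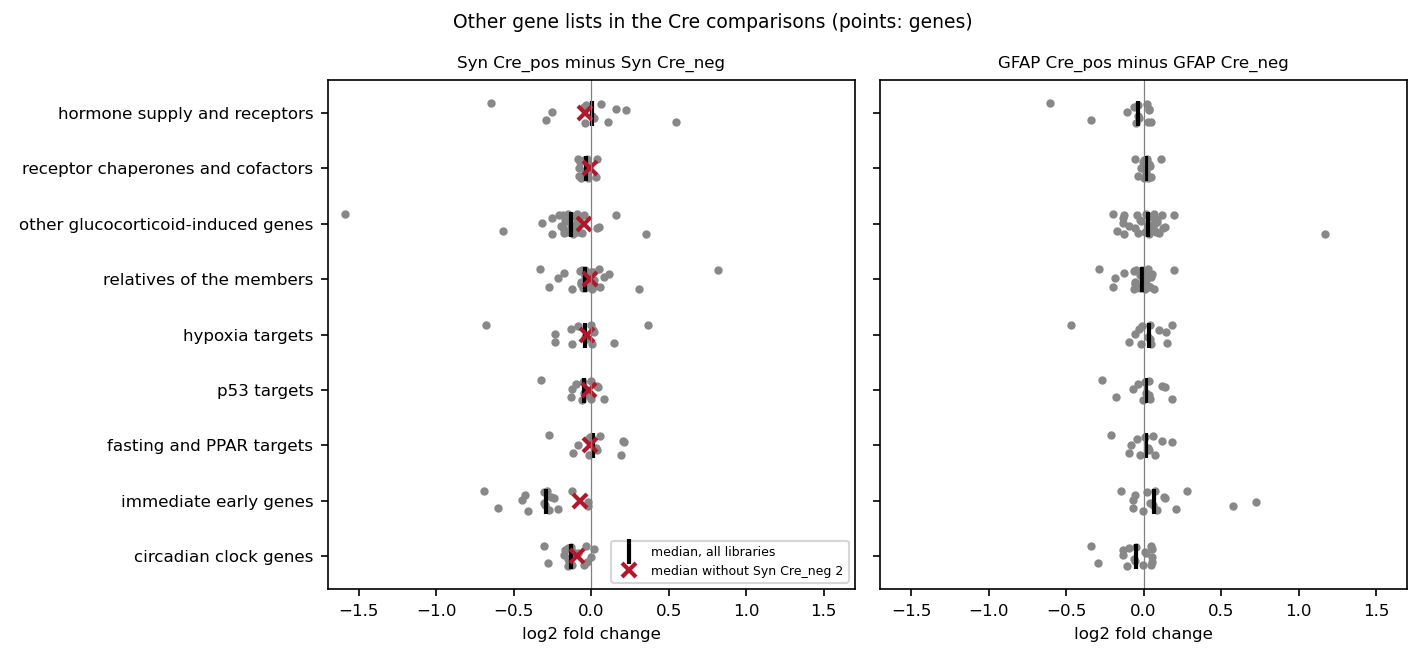
Points are genes and x gives the log2 fold change in the Syn (left) and GFAP (right) Cre comparison for 9 other gene lists, with black bars at list medians and red crosses at medians without Syn Cre_neg 2. The immediate early median is -0.29 with all libraries and -0.08 without that one, and GFAP medians lie between -0.05 and 0.07.

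Lists chosen for single members gave smaller values. Relatives of the members were negative in 17 of 27 (Map3k5 -0.22, Zbtb18 0.11, Sult2b1 -0.18), hypoxia targets in 9 of 14 (Kdm3a -0.12, Adm -0.68, Ndrg1 0.14) and p53 targets in 9 of 13 (Mdm2 -0.10, Trp53inp1 -0.13, Zmat3 -0.06). Genes of fasting and of the PPAR receptors were negative in 6 of 12 (Acot1 0.21, Ucp3 0.19). None of these genes was called in either Cre comparison by edgeR, and their medians lay between -0.05 and 0.01 in the Syn Cre comparison.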

How the data were processed

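Whole-number counts per gene, as deposited by the authors without normalization, were used for 24 brain libraries. The RNA came from a lipid tissue kit, had an integrity number above 9 and was sequenced on an Illumina HiSeq, per the labels' protocols. The submitters' processing notes name mm10, HISAT2, HTSeq 0.6.0 and DESeq2 1.6.3, with no role or order. HTSeq's 5 summary lines per deposited count file entered neither library sizes nor tests, and its reads with no gene made up 4.47 to 11.1% of a file. No source used here states how strand was treated. Symbols came from the GENCODE annotation of GRCm38, which matched 52403 of 52636 identifiers. Each of the 60 pairs of libraries from one group differed beyond sampling noise, so none was treated as a copy.

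Genes were filtered with filterByExpr (19726 left), and edgeR 4.0.16 in R 4.3.3 fitted TMM-scaled counts as 4 group means with robust quasi-likelihood tests, 20 residual degrees of freedom and Benjamini-Hochberg adjustment over all genes tested. CPM and RPKM (exon length) used the scaled library sizes. Intervals are 95% intervals of the fitted log2 fold change, with an error based on the spread between mice. Comparisons were Cre_pos minus Cre_neg in each line and the mean of the Syn groups minus the mean of the GFAP groups. Correlations used 100000 permutations within groups, without regard to title number, adjusted over 45 pairs. Alternatives were other scaling factors, filters, DESeq2 1.42.0, limma-voom (limma 3.58.1), each line alone and leaving out each library. The fit was tested on simulated data. Replicate numbers follow accession order and pair nothing.

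The members and the lists were chosen with earlier results of these data known, and the Syn values behind that choice also enter the comparison of lines. Named genes were all members, Slc1a2, every tested gene of hormone supply and receptors, up to 3 genes per other list with the smallest p in the Syn Cre comparison, and the 5 genes most like the members' mean. Ttr was named after its values were seen.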

Additional observations from a re-analysis of the deposited data

Results flagged for a closer look

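In 40 sets of 6 values (10 genes in 4 groups), 3 held a library far from the other 5 of its group by Dixon's test, where chance gives about 1 in 20. Tsc22d3 stood at 103.5 CPM in Syn Cre_neg 2, against 55.57 to 65.72 CPM in the other 5 libraries of that group. Cdkn1a stood at 16.94 CPM in the same library, against 4.942 to 8.176 CPM in the other 5. Tsc22d3 also stood at 75.46 CPM in GFAP Cre_pos 4, where the remaining 5 libraries had 45.65 to 53.6 CPM, and that library had the highest mean of the members in its group, at 3.81 log2 CPM against 3.34 to 3.56 in the others.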

How the results depend on the processing

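Of 982 values recomputed under an alternative, 958 were counted as unchanged, 0 reversed while called, 20 lost and 1 gained a call, and 3 moved. A Syn Cre fold change was counted as unchanged if it shifted by less than the spread between libraries within the Syn groups. Cdkn1a was therefore counted as unchanged there, although its log2 fold change ran from -0.76 to -0.27 when each library was left out. A change of sign without a call was counted as unchanged. The Tsc22d3 log2 fold change in the GFAP Cre comparison ran from -0.13 to 0.10 when each library was left out. That of Pdk4 in the Syn Cre comparison ran from -0.06 to 0.11. Among the 3 that moved, 1 was the number of members under the adjusted p threshold in the Syn Cre comparison (1 with DESeq2), a description. The others moved by more than their spread. The lost calls were all of Fkbp5 between lines, so the number of members called lower in the Syn line was 0 with RLE factors, 0 with upper-quartile factors, 0 without a filter, 0 with at least 1 CPM in 6 libraries and 0 with the Syn libraries below 1000 CPM of Ttr only, and 0 to 1 when each library was left out; the cause was not tested. The gained call was Zbtb16 between lines (0.28) with the Syn libraries below 1000 CPM of Ttr, a choice made after seeing the data, as were the repeats of the gene lists. The number of covarying pairs was 2 when the 2 farthest libraries of each pair were left out (Tsc22d3 with Fkbp5, and Fkbp5 with Pdk4, which did not pass with all 12), which also leaves fewer libraries. The median member log2 fold change in the Syn Cre comparison ran from -0.55 to -0.30 when each library was left out. No paired analysis was possible because replicate numbers follow accession order and the numbers in the titles are not shared between groups. Low counts limit Plin4, Map3k6 and Hif3a most, with lowest counts of 65, 67 and 85 in a library.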
